A study of Arabidopsis thaliana with 9 samples.

Results

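Class III peroxidases are secreted plant enzymes that use hydrogen peroxide to oxidise phenolic compounds in the cell wall. In the root endodermis such oxidation couples monolignols into the lignin of the Casparian strip, the barrier whose formation the transcription factor MYB36 is known to direct. Members of the same family also act in vascular lignification, wall stiffening and responses to stress. The 10 peroxidase genes described here were chosen, from measured changes in these data, because their transcripts were higher in roots of the myb36 mutants than in wild-type roots. They are PRX52 (AT5G05340), AT1G49570, PER71 (AT5G64120), Prx37 (AT4G08770), PER49 (AT4G36430), AT5G39580, AT5G19890, AT5G19880, AT2G18150 and AT1G14550. Of 73 listed class III peroxidases 64 were measured, each by 1 probe set annotated to that gene alone, so the set makes up 10 of 64 measured peroxidases and 10 of 16548 measured genes.

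Root RNA was hybridised to 3 Affymetrix arrays of each of 3 Arabidopsis lines, the mutants myb36-1 and myb36-2 (GK543B11 in the array titles) and the wild type Col-0. Each allele is represented by 1 line. All plants were 2 weeks old and had been kept on upright plates of agar with MGRL salts and sucrose. The sources used here do not describe the mutations, and MYB36 was not analysed here, so its transcript could not serve as a check of the line labels. Whether a line's arrays stem from separate cultures is not labelled, so p-values measure only the spread between arrays, which may be technical.

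Values are log2 expression levels made by the authors with RMA, which corrects background, equalises arrays and summarises the probes of a gene. Array medians over the 31325 tested probe sets were 5.07 to 5.09 in myb36-1, 5.30 to 5.34 in myb36-2 and 5.09 to 5.11 in Col-0. The myb36-2 arrays thus sit higher as a whole, and the median difference from Col-0 among tested probe sets was -0.01 for myb36-1 but 0.16 for myb36-2. Scale and line cannot be told apart for myb36-2, so results for it are also given on a common scale, meaning after quantile normalisation over all 9 arrays. With this scaling its median difference was -0.01. Both mutants are set against the same 3 Col-0 arrays. Among markers of the root, the root hair genes EXPA7 and EXPA18 averaged 6.77 and 7.80 in myb36-1, 6.76 and 7.97 in myb36-2, and 6.76 and 7.78 in Col-0.

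The genes differed in how far they stood above the wild type. PRX52 and AT1G49570 were 4.14- to 7.20-fold above the Col-0 level in the mutants and PER71 2.42- to 3.26-fold, whereas Prx37 and PER49 were higher by less than 1 log2 unit. In whole roots, more cells expressing a gene and more of its RNA per cell cannot be told apart. As the same contrasts chose the genes, their differences from Col-0 are given as a description with the standard error (SE) of a limma fit over all tested probe sets. Counts of genes past the threshold of that fit, given further on, describe the same values and are no independent test.

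PRX52, a peroxidase known from stem fibres for a part in lignification, had the widest gap between mutants and wild type. Its log2 level was 7.56, 7.50 and 7.85 in myb36-1, 7.56, 7.16 and 7.35 in myb36-2, and 5.01, 4.47 and 4.89 in Col-0. All 6 mutant arrays lay more than 2 log2 units above the highest Col-0 array. The difference from Col-0 was 2.85 ± 0.16 in myb36-1 (SE, n = 3 arrays per line, here and below) and 2.57 ± 0.16 in myb36-2, or 7.20-fold and 5.93-fold. In the mean of both mutants this was the highest rank of all 16548 genes, rank 1, as deposited and on the common scale. In each mutant alone PRX52 was at rank 2 on both scales.

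AT1G49570 read 7.82, 8.06 and 8.20 in myb36-1, 8.37, 8.49 and 8.56 in myb36-2, and 5.96, 5.57 and 6.40 in Col-0. Here the myb36-2 arrays were all above the myb36-1 arrays, and the Col-0 arrays were the most spread, with an SD of 0.41. The gene stood higher by 2.05 ± 0.19 in myb36-1 (4.14-fold) and by 2.50 ± 0.19 in myb36-2 (5.65-fold), rank 4 in the mean of both mutants.

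PER71, known for a part in wall stiffening and in responses to wall damage, showed the same order of lines. Its arrays read 7.67, 7.98 and 7.88 in myb36-1, 8.11, 8.30 and 8.41 in myb36-2, and 6.27, 6.57 and 6.86 in Col-0, with no overlap between any pair of lines as deposited. On the common scale the arrays of the mutants overlapped each other. The differences from Col-0 were 1.28 ± 0.15 in myb36-1 (2.42-fold) and 1.70 ± 0.15 in myb36-2 (3.26-fold).

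**Figure D1:**
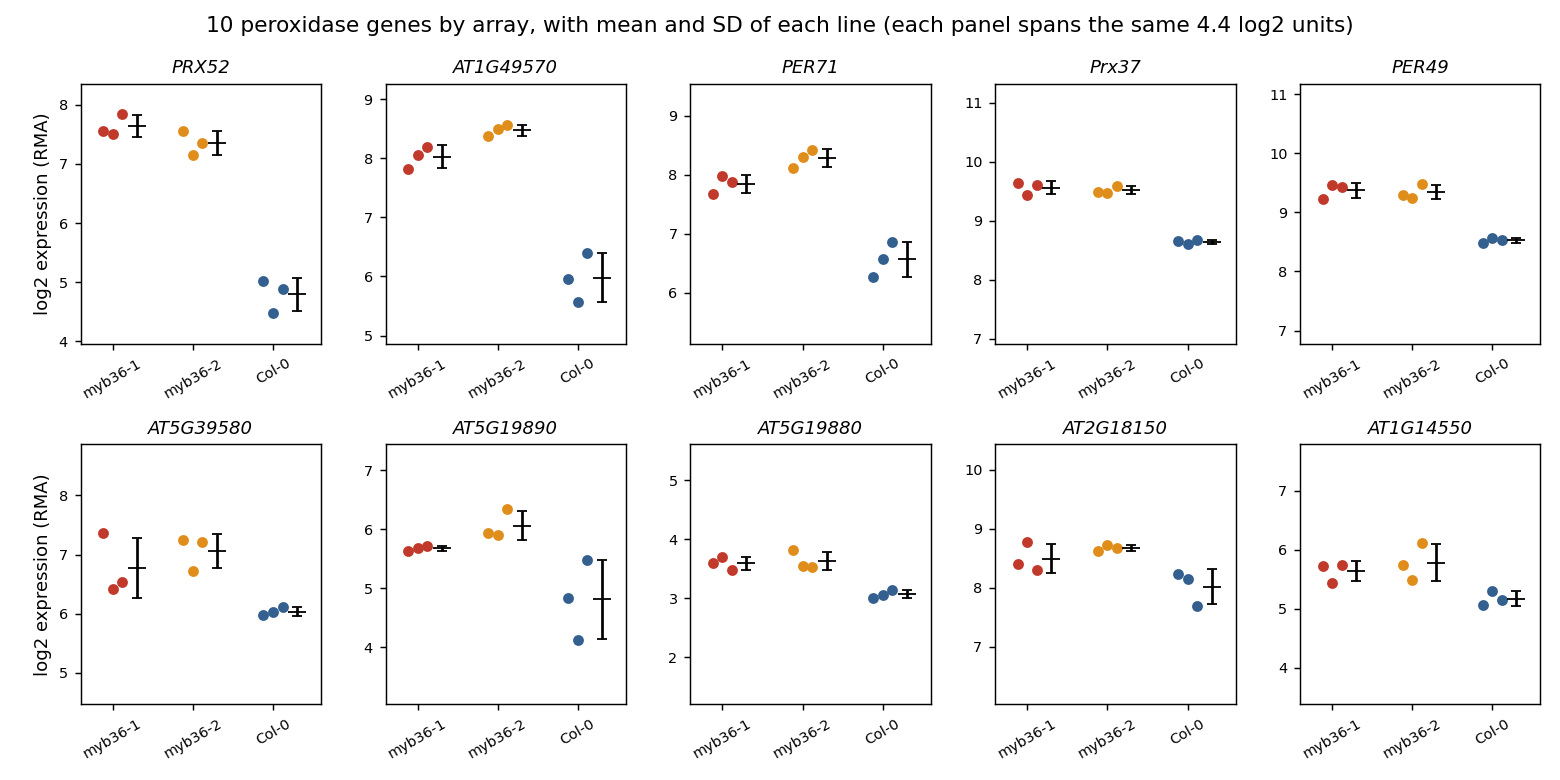
Log2 expression of the 10 peroxidase genes on each array, as deposited, by line; coloured points are arrays, and black bars are the mean and SD of 3 arrays. For PRX52 the mutant arrays lie between 7.16 and 7.85 and the Col-0 arrays between 4.47 and 5.01, while for AT1G14550 they lie between 5.44 and 6.11 and between 5.06 and 5.31.

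Prx37, whose overexpression in Arabidopsis is known to stunt growth, and PER49 varied little between arrays of a line. Prx37 was at 9.63, 9.43 and 9.61 in myb36-1, 9.49, 9.47 and 9.59 in myb36-2, and 8.65, 8.61 and 8.67 in Col-0. The Col-0 SD was 0.03, and the arrays of the mutants overlapped each other but not Col-0. Prx37 was higher by 0.91 ± 0.08 in myb36-1 (1.88-fold) and 0.87 ± 0.08 in myb36-2 (1.83-fold). PER49 read 9.23, 9.46 and 9.43 in myb36-1, 9.30, 9.25 and 9.48 in myb36-2, and 8.48, 8.57 and 8.53 in Col-0. Mutant and wild-type arrays were again apart, with differences of 0.85 ± 0.10 in myb36-1 (1.80-fold) and 0.82 ± 0.10 in myb36-2 (1.76-fold). On the common scale the myb36-2 differences of PRX52, AT1G49570, PER71, Prx37 and PER49 were 2.40, 2.35, 1.57, 0.77 and 0.70.

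The remaining 5 genes had smaller or more scattered differences. AT5G39580 was at 7.36, 6.42 and 6.53 in myb36-1, 7.25, 6.72 and 7.21 in myb36-2, and 5.97, 6.02 and 6.11 in Col-0. In myb36-1 a single array, replicate 1, stood well above the other two, and the difference of 0.74 ± 0.24 became 0.44 without it. In myb36-2 the difference was 1.03 ± 0.24, and 0.87 on the common scale. AT5G19890 was at 5.63, 5.68 and 5.71 in myb36-1, 5.93, 5.90 and 6.34 in myb36-2, and 4.84, 4.13 and 5.47 in Col-0. For this gene the scatter was in the wild type, with an SD of 0.67 in Col-0 against 0.04 in myb36-1. Its differences were 0.86 ± 0.28 in myb36-1 and 1.24 ± 0.28 in myb36-2 (1.04 on the common scale). Without Col-0 replicate 2 they were 0.52 and 0.90, and without Col-0 replicate 3 they were 1.19 and 1.57.

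AT5G19880, which lies next to AT5G19890 in gene order, read 3.59, 3.70 and 3.48 in myb36-1, 3.81, 3.55 and 3.53 in myb36-2, and 3.0, 3.06 and 3.14 in Col-0. The mutant arrays were all above the wild type, by 0.52 ± 0.10 in myb36-1 and 0.56 ± 0.10 in myb36-2. After quantile normalisation the myb36-2 difference was 0.27 ± 0.11, less than that as deposited by more than 1.5 times. AT2G18150 read 8.40, 8.77 and 8.31 in myb36-1, 8.62, 8.73 and 8.67 in myb36-2, and 8.23, 8.15 and 7.69 in Col-0. Its lowest myb36-1 array was just above its highest Col-0 array, and Col-0 replicate 3 alone was under 8. The differences were 0.47 ± 0.16 in myb36-1 and 0.65 ± 0.16 in myb36-2 (0.52 on the common scale). Without Col-0 replicate 3 the myb36-1 difference was 0.30. AT1G14550 read 5.73, 5.44 and 5.75 in myb36-1, 5.74, 5.49 and 6.11 in myb36-2, and 5.06, 5.31 and 5.15 in Col-0. The groups were apart by little, with differences of 0.47 ± 0.16 in myb36-1 and 0.61 ± 0.16 in myb36-2. Its myb36-2 arrays overlapped those of Col-0 on the common scale, with a difference of 0.40 ± 0.16.

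Counted together, 5 of 10 genes passed an adjusted p of 0.05 in limma as higher in myb36-1; among all tested probe sets 0.227% did so. On the common scale 5 passed, against 0.23%. The 5 were PRX52, AT1G49570, PER71, Prx37 and PER49. The others passed in myb36-2 alone, although their myb36-1 arrays too were all above those of Col-0. On the common scale AT5G19880 and AT1G14550 were at 0.50 and 0.48 in myb36-1, against 0.27 and 0.40 in myb36-2. In myb36-2 all 10 passed as deposited, where 19.3% of tested probe sets did, and 7 passed on the common scale, where 4.66% did. AT5G19880, AT2G18150 and AT1G14550 were the 3 that passed as deposited only. On the common scale AT5G39580 passed only just (adjusted p = 0.05 in limma after rounding). Without myb36-2 replicate 3 the count was 6, where 4071 of 31325 tested probe sets passed as higher. In both mutants together 5 passed, against 0.223% of tested probe sets, and 5 on the common scale, against 0.214%. All 10 genes had 6 mutant arrays above all Col-0 arrays, as did 6.36% of tested probe sets; on the common scale 9 did, against 4.21%. The median difference of the 10 was 0.86 in myb36-1 and 0.95 in myb36-2, or 0.82 in myb36-2 on the common scale. Since the genes were chosen from these contrasts, the counts describe the choice and support nothing further.

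**Figure D2:**
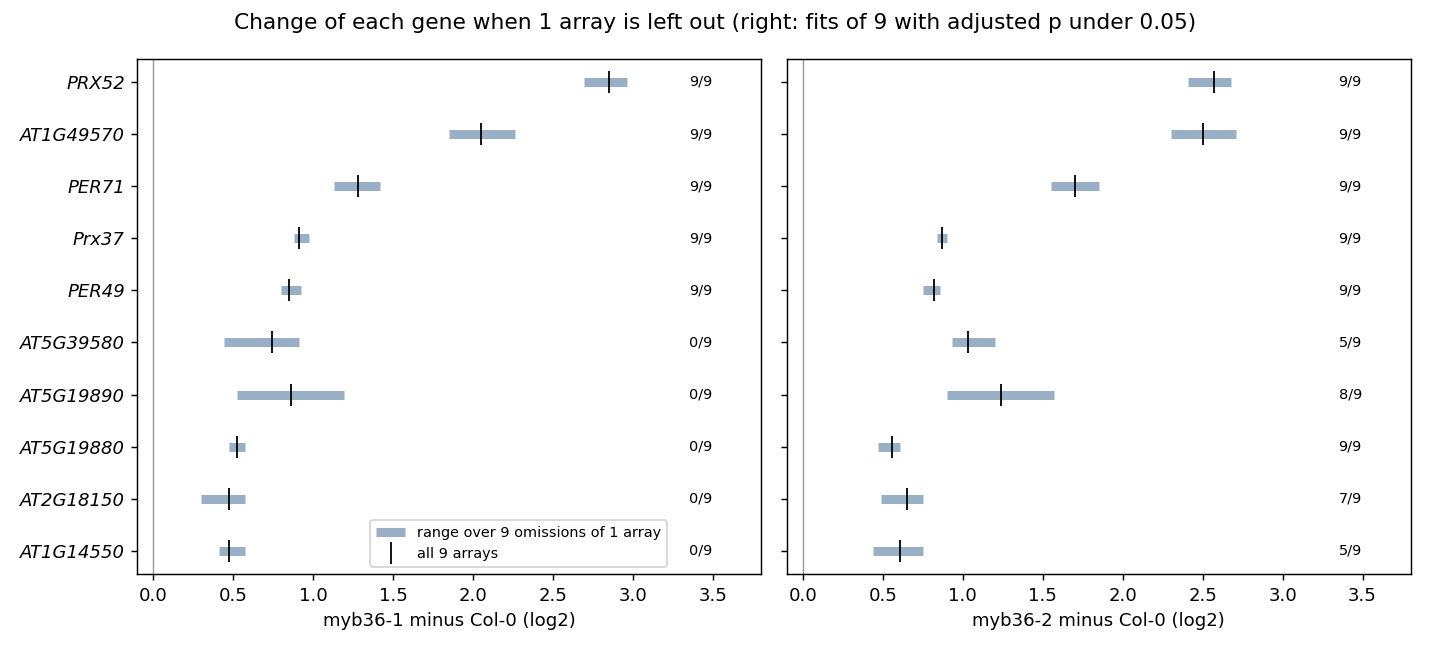
Log2 difference from Col-0 of each gene in myb36-1 (left) and myb36-2 (right); the black mark is the fit with all 9 arrays, the blue bar spans the 9 fits that each omit 1 array, and the numbers at the right count the fits with an adjusted p under 0.05. The upper 5 genes passed in 9 of 9 fits in both mutants, and the lower 5 in 0 of 9 in myb36-1 and in 5 to 9 of 9 in myb36-2.

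No numerical limit came with the choice of genes. By size of change the genes nearest to its edge were AT2G18150, AT5G19880 and AT1G14550, at 0.56, 0.54 and 0.54 in the mean of both mutants. The highest peroxidase outside the set, AT1G34510, was at 0.49. AT4G11290, also outside it, was at 0.39 and passed in this mean on both scales (adjusted p = 0.012 and 0.034 in limma). The 3 edge genes did not pass in it on the common scale. Neither did AT5G39580 and AT5G19890 (adjusted p = 0.069 and 0.066 in limma). In this mean 8 of the 10 genes passed as deposited, AT5G19880 among them, and 5 on the common scale. Of 31325 tested probe sets 1371 and 473 passed as higher in it. Of the 54 other peroxidases, 4 had all 6 mutant arrays above all Col-0 arrays on either scale, as did 6.36% and 4.21% of tested probe sets.

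Whether the 2 mutants differed from each other was not part of the choice of genes, although the same arrays were used. In limma 0 of 10 genes passed in the contrast of myb36-1 with myb36-2, where 15.4% of tested probe sets passed in either direction. After quantile normalisation 0 of 10 passed as well, against 4.15%. At an unadjusted p under 0.05 there were 2 of 10 as deposited, PER71 and AT1G49570, and 1 on the common scale, PRX52. The share of all tested probe sets under that unadjusted threshold was not computed, so nothing is read from these counts. The arrays of the 2 mutants did not overlap for 3 of 10 genes as deposited (AT1G49570, PER71 and AT5G19890), where the same held for 38% of tested probe sets. On the common scale this held for 2 of 10, PRX52 and AT1G49570, against 26.1%. Both counts were close to what these shares give, and nothing is read from them. Without an adjustment of scale 7 of 10 genes had a negative difference of myb36-1 minus myb36-2, and with it 5 of 10. The median difference over all tested probe sets was -0.17 and 0.01. Their share with a negative difference was not computed, so nothing is read from these 2 counts.

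The log2 difference of myb36-1 minus myb36-2 was -0.43 ± 0.15 for PER71, with a 95% interval of -0.77 to -0.08 (adjusted p = 0.09 in limma). The common scale gave -0.29 with an interval of -0.64 to 0.06. AT1G49570 differed by -0.45 ± 0.19, with an interval of -0.87 to -0.02 (adjusted p = 0.13 in limma), and by -0.31 on the common scale. For PRX52 the estimate had the other sign, 0.28 ± 0.16 and an interval of -0.09 to 0.65 (adjusted p = 0.26 in limma). The common scale gave 0.42 with an interval of 0.08 to 0.77 (adjusted p = 0.16 in limma).

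The narrowest intervals were those of Prx37, at -0.15 to 0.22 around 0.04, and PER49, at -0.19 to 0.24 around 0.03. Their upper bounds on the common scale were 0.32 and 0.35, so the intervals of both genes left out differences between the mutants as large as those from Col-0. AT5G19890 had the widest interval, -1.01 to 0.25, followed by AT5G39580 at -0.82 to 0.25. AT5G19880, AT2G18150 and AT1G14550 differed by -0.04, -0.18 and -0.14, and the signs of AT5G19880 and AT1G14550 turned on the common scale, to 0.23 and 0.08.

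**Figure D3:**
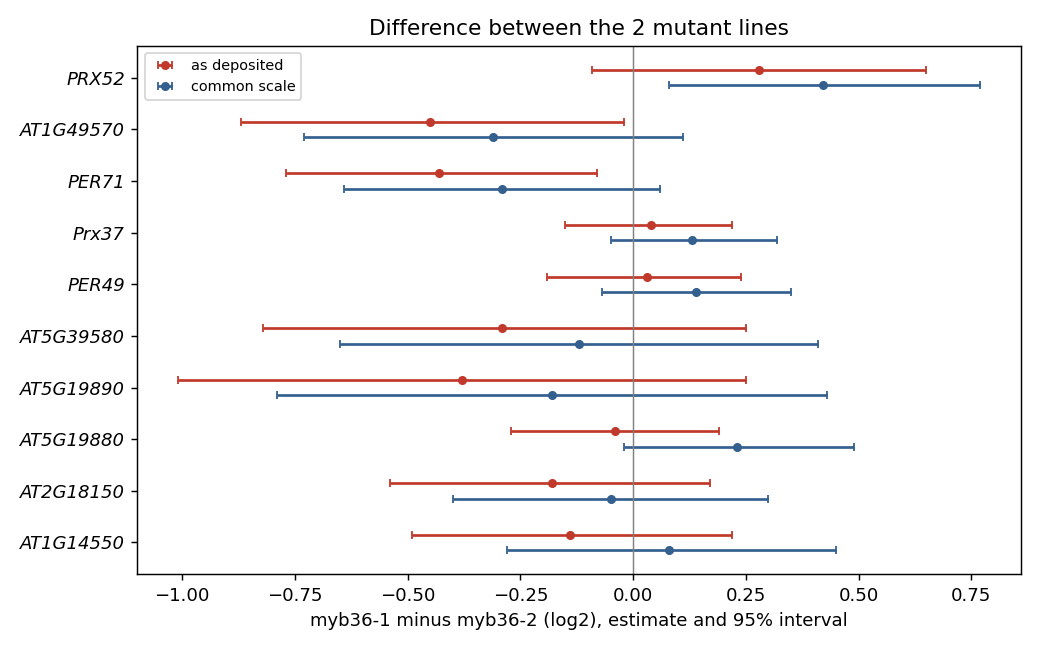
Log2 difference of myb36-1 minus myb36-2 for each gene with its 95% interval from limma, as deposited (red) and on the common scale (blue). Every estimate lies between -0.45 and 0.42, and the intervals that leave out 0 are those of AT1G49570 and PER71 as deposited and of PRX52 on the common scale.

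Over the 9 arrays the genes had similar profiles, a measure that includes the difference between mutants and wild type used to choose them. Pearson correlations among the 45 pairs ran from 0.536, for AT5G19890 with AT2G18150, to 0.986, for PRX52 with Prx37, with a median of 0.810. Within lines, after each line's mean was removed, the median over pairs was 0.06 and 25 of 45 pairs were above 0. Col-0 replicate 3 was the highest of its line for 6 of 10 genes, and so was myb36-2 replicate 3. All these values are descriptions, and the points share arrays and lines.

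Genes outside the set with the most similar profile were ranked by their correlation with the mean of the 10 over 9 arrays, among 2095 genes with a range of at least 1 log2 unit. This measure again includes the difference between mutants and wild type used to choose the 10. AT4G00910 came first with 0.984, followed by AT1G67148 (0.982), AT1G30760 (0.978), AT1G51920 (0.974) and AT1G65500 (0.969). After quantile normalisation 4 of these 5 were again among the first 5, and AT3G28580 (0.973) took the place of AT1G51920. AT4G00910 stood above Col-0 by 1.58 in myb36-1 and 1.80 in myb36-2, and AT1G65500 by 2.34 and 2.45. No annotation beyond the locus is held here for these genes.

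Several of the 10 genes have another peroxidase beside them on the chromosome. AT5G19890 and AT5G19880 are adjacent and both belong to the set. Prx37 adjoins AT4G08780, which read 8.74, 8.67 and 8.72 in myb36-1, 8.76, 8.65 and 8.14 in myb36-2, and 8.19, 8.22 and 8.53 in Col-0. The arrays of AT4G08780 overlapped in myb36-2, and its differences of 0.39 ± 0.16 in myb36-1 and 0.20 ± 0.16 in myb36-2 did not pass (adjusted p = 0.41 and 0.39 in limma). Whether the probes of these peroxidases take up each other's transcript was not tested.

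PER71 adjoins AT5G64110, at -0.05 in myb36-1 and -0.21 in myb36-2 without passing. AT5G64110 fell in myb36-2 by 0.52 with the common scale (adjusted p = 0.046 in limma). With 1 gene between lies AT5G64100, at 0.14 and 0.20 without passing. AT2G18150 adjoins AT2G18140, whose level averaged 2.63 in myb36-1, 2.76 in myb36-2 and 2.68 in Col-0, with a Col-0 SD of 0.45. Whether AT2G18140 stood above background at this low level is not known. The neighbour of AT1G14550, AT1G14540, was not analysed here. By locus number 5 of the 10 genes lie on chromosome 5, as do 13 of the 54 other measured peroxidases.

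The 54 other measured peroxidases showed mostly small differences. In myb36-1 0 of them rose and 3 fell in limma, and at an unadjusted p under 0.05 there were 10 in either direction. For the unadjusted threshold no share of all tested probe sets was computed. In this contrast 0.268% of tested probe sets fell. The 3 were AT1G44970, AT2G38390 and AT3G32980. With the common scale 2 fell in myb36-1, against 0.243% of tested probe sets, and AT3G32980 did not pass, at -0.47 (adjusted p = 0.057 in limma). As deposited the count was 1 without Col-0 replicate 3, any myb36-1 array, or myb36-2 replicates 1 or 3. In myb36-2 11 rose and 5 fell as deposited, against 19.3% and 2.02% of tested probe sets. On the common scale 1 rose and 8 fell, against 4.66% and 5.39%, so which direction prevailed in myb36-2 depended on the scale. The median difference of the 54 was -0.04 in myb36-1 and 0.09 in myb36-2, beside -0.01 and 0.16 for the whole table.

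The lowest of the 54 in the mean of both mutants was AT1G44970, at 3.39, 3.45 and 3.55 in myb36-1, 4.06, 3.99 and 4.21 in myb36-2, and 4.84, 5.33 and 4.57 in Col-0. It fell by 1.45 ± 0.17 in myb36-1 and by 0.83 ± 0.17 in myb36-2 (adjusted p = 0.0063 and 0.011 in limma). AT2G38390 fell by 0.83 and 0.94, while AT4G16270 fell by 0.81 in myb36-2 and stood at -0.75 in myb36-1, which did not pass. At the upper end AT1G34510, AT4G11290 and AT4G37520 were at 0.27, 0.29 and 0.13 in myb36-1 without passing, and rose by 0.71, 0.49 and 0.63 in myb36-2 as deposited. Of these 3 AT4G11290 alone passed in myb36-2 on the common scale, with 0.34 (adjusted p = 0.025 in limma).

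**Figure D4:**
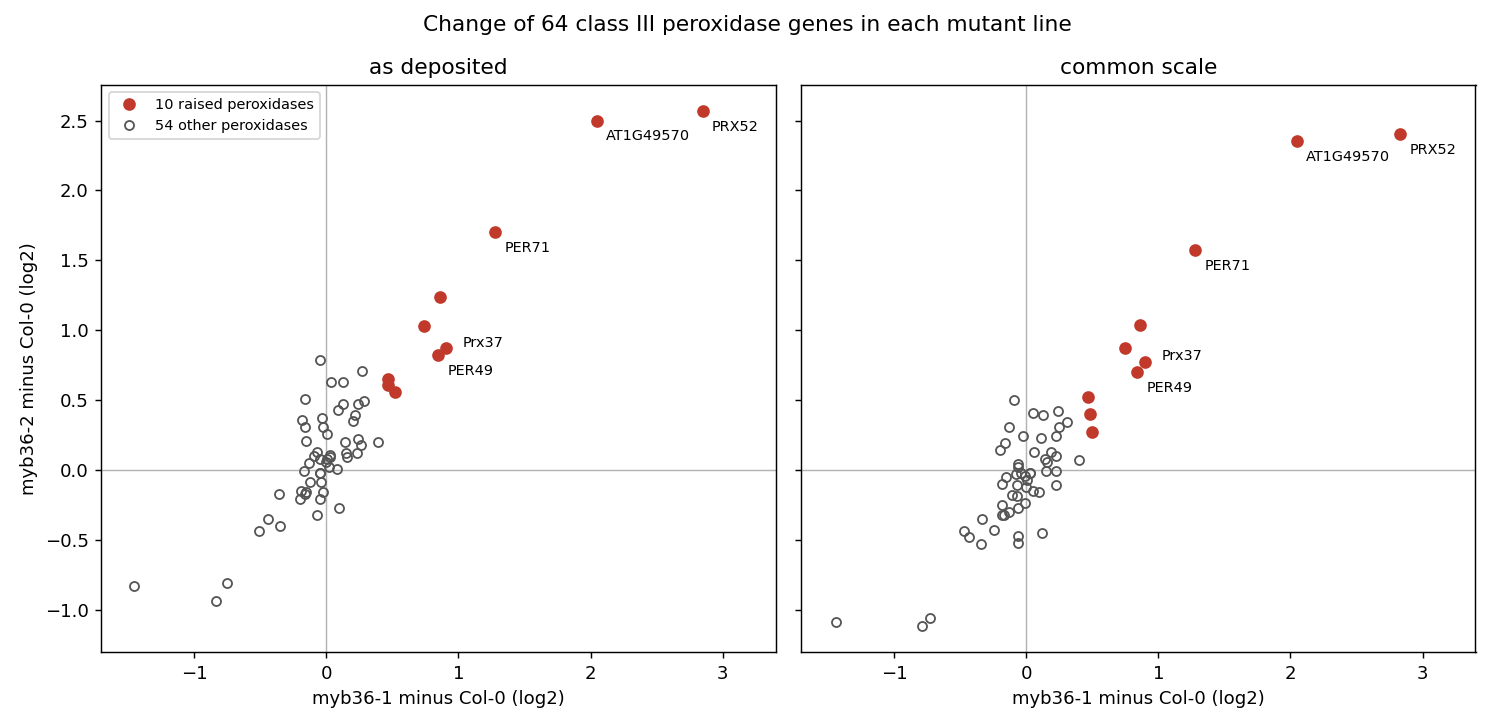
Log2 difference from Col-0 of 64 class III peroxidases, in myb36-1 (horizontal axis) and myb36-2 (vertical axis), as deposited (left) and on the common scale (right); filled points are the 10 raised genes and open circles the 54 others, and both axes use the same Col-0 arrays. The 54 others span -1.45 to 0.39 in myb36-1, and on the common scale their open circles move down in myb36-2.

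Few genes that act beside peroxidases in lignin formation had a probe set annotated to 1 gene, which is what measured means here. Of the 31325 tested probe sets 13844 had no gene in the annotation. Whether the unmeasured genes were on the array is therefore not known. Of 10 listed NADPH oxidases, which supply superoxide that gives rise to hydrogen peroxide, 2 were measured. AT4G25090 rose by 0.63 in myb36-2 (adjusted p = 0.0071 in limma), and by 0.50 on the common scale, and was 0.40 in myb36-1, which did not pass. AT4G11230 rose by 0.48 in myb36-2 as deposited but did not pass on the common scale, at 0.31, or in myb36-1, at 0.30. Of 17 laccases, copper enzymes that also oxidise monolignols, 2 were measured. AT5G01050 rose by 0.61 in myb36-2 as deposited but was 0.31 there on the common scale and 0.26 in myb36-1, neither of which passed. LAC16 was at -0.36 and -0.05 without passing. Of 18 monolignol synthesis genes HCT and CCR2 were measured, and 0 of 2 passed in either mutant, with 0 of 2 at an unadjusted p under 0.05 in limma.

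Of 13 listed endodermal genes 3 were measured. AT1G61590 fell by 1.24 in myb36-1 and by 1.34 in myb36-2 (adjusted p = 0.0033 and 0.00057 in limma). AT1G44970 is the second that fell, and GSO1 was at -0.27 and -0.05 without passing. Of 9 xylem markers 1 was measured, the peroxidase AT5G51890, at -0.09 and 0.10 without passing. EXPA7 and EXPA18, 2 of 7 root hair markers, did not pass.

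The few measured markers of other tissues or states were mixed in myb36-2: STZ rose, RCA fell, and PDF1.2 and LHCB4.1 did not pass. STZ, a zinc finger gene of stress responses, was at 6.93, 7.34 and 6.98 in myb36-1, 8.58, 8.15 and 8.64 in myb36-2, and 6.32, 6.51 and 6.53 in Col-0. All 3 myb36-2 arrays of STZ stood above the rest: it rose by 2.01 ± 0.15 there (adjusted p = 0.00018 in limma), and its 0.63 ± 0.15 in myb36-1 did not pass. PDF1.2, the other measured gene of the 11 on this list, averaged 2.48 in myb36-1, 2.36 in myb36-2 and 2.51 in Col-0. Of 12 photosynthesis genes 2 were measured. RCA, encoding rubisco activase, fell in myb36-2 by 0.50, and LHCB4.1 was at 0.01 there. The part of these states and tissues in the peroxidase values was not tested.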

How the data were processed

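Root RNA was measured on 9 arrays, 3 per line. The deposited log2 values were made by the authors with RMA, per the submitters' processing notes; the version and any joint normalisation of the arrays: not given in the sources used here. Of 38408 probe sets, 7083 with identifiers before the first annotated one were omitted; they hold 1991 distinct profiles, and that they are controls is an assumption. Of the rest, 13844 had no gene in the platform annotation and 759 had several. A further 16722 had 1 gene, and 16715 of those matched the reference gene table. Its assembly is TAIR10.1, and names and neighbours were taken from it. A gene was represented by its brightest probe set.

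With limma 3.58.1 in R 4.3.3, the other 31325 probe sets were fitted with a mean for each line and empirical Bayes moderation. Contrasts were two-sided, with Benjamini-Hochberg adjustment over all of them and a threshold of 0.05. The fit was tested on simulated data. The number of arrays limits the precision. The 10 genes and all lists were chosen with earlier results of these data known. Named genes were the 10, the 3 highest and 3 lowest other peroxidases, neighbouring peroxidases, the 5 most similar profiles and up to 4 measured genes of each list; AT3G32980, AT1G30870 and the genes that differed between the mutants were named after their values were seen. Alternatives were other scalings, a filter on dim probe sets, other moderation, array weights, fewer arrays, a replicate block, other sets of probe sets, stricter thresholds and the omission of single arrays.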

Additional observations from a re-analysis of the deposited data

Results flagged for a closer look

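Of the 64 measured peroxidases 8 differed between the mutants as deposited (limma, adjusted p under 0.05), where 15.4% of all tested probe sets did, so the count is near that share. The 8 are among the 54 other peroxidases. All 8 were lower in myb36-1 than in myb36-2. The log2 difference of myb36-1 minus myb36-2 was -0.84 for AT3G17070, -0.67 for AT2G34060, -0.62 for AT1G44970, -0.59 for AT4G25980, -0.54 for AT4G31760, -0.50 for AT4G37520, -0.47 for AT2G38380 and -0.41 for AT1G68850. On the common scale 0 of the 54 other peroxidases were called lower in myb36-1 and 1 was called higher, AT1G30870, named after its value was seen, where 4.15% of tested probe sets were called in either direction. The direction of all 8 is that of the whole contrast as deposited, whose median over tested probe sets was -0.17.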

How the results depend on the processing

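PRX52, AT1G49570, PER71, Prx37 and PER49 passed in both mutants under all 18 alternatives of scaling, filtering, moderation, arrays and probe sets. In myb36-1 the count of 5 raised genes became 3 when a change of 1 log2 unit was also required. In myb36-2 the count of 10 became 7 after quantile normalisation, 6 after median centring, 6 at an adjusted p under 0.01, 5 with a change of 1 log2 unit, and 6 to 10 when single arrays were left out. Of 31325 tested probe sets 6036 were higher in myb36-2 as deposited, 1461 after quantile normalisation and 1558 after median centring. With single arrays left out there were 3526 to 5802. Whole-table counts at the stricter thresholds were not computed. AT1G14550 was lost without Col-0 replicates 1 or 3 or myb36-2 replicates 1 or 3 (changes of 0.55, 0.59, 0.63 and 0.44). AT5G39580 was lost without Col-0 replicates 1 or 2 or myb36-2 replicates 1 or 3 (0.99, 1.02, 0.93 and 0.95). AT2G18150 was lost without myb36-2 replicates 2 or 3 (0.62 and 0.65), and AT5G19890 without myb36-2 replicate 3 (1.10). Between the mutants the count of 0 became 1 with the replicate block, PER71 at -0.43 (adjusted p = 0.0396 in limma; 0.0396 to 0.463 over its alternatives). Whether same-numbered arrays share more than a number is not labelled. Their deviations correlated at -0.19 to 0.085, and those of differently numbered arrays at -0.169 to 0.171. The block moved no other count by more than 1.5 times.

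Uncalled differences between mutants changed sign as follows. AT5G19880 was at 0.23 after quantile normalisation, 0.20 after median centring, 0.013 without myb36-1 replicate 3 and 0.049 without myb36-2 replicate 1, in a range of -0.094 to 0.049 when single arrays were left out. AT1G14550 was at 0.082, 0.10 and, without myb36-2 replicate 3, 0.027 (range -0.28 to 0.027). AT2G18150 was at 0.056 after median centring. PER49 was at -0.015 without myb36-1 replicate 2 and -0.018 without myb36-2 replicate 2 (range -0.018 to 0.10). Of the other peroxidases, the 3 lower in myb36-1 became 1 with only the 6 arrays compared, with all deposited probe sets, at 0.01 and with 1 log2 unit, and 1 to 3 when single arrays were left out. Of 31325 tested probe sets 84 were lower in myb36-1, 52 with the 6 arrays, and 41 to 66 with single arrays left out. The 11 higher in myb36-2 became 1 under either scaling, 7 with the 6 arrays, 1 at 0.01, 0 with 1 log2 unit, and 4 to 9 when single arrays were left out, the lowest without Col-0 replicate 1. Omitting Col-0 replicate 2 or myb36-2 replicate 2 gave 6, and myb36-2 replicates 1 or 3 gave 7. The 5 lower in myb36-2 became 8 and 12 after quantile normalisation and median centring (tested probe sets: 633 became 1688 and 2524). The 5 became 3 at 0.01, 0 with 1 log2 unit, and 4 to 6 with single arrays left out. The causes were not tested. No background signal is given, so how far dim genes such as AT5G19880, AT2G18140 and PDF1.2 stood above it is not known.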
